A study of Mus musculus with 3 samples.

Results

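The 10 genes described here encode the interleukin-1 and tumor necrosis factor cytokines, their antagonist and receptors, and a pair of inhibitors that are induced by their common pathway: Il1a, Il1b, Il1rn, Il1r1, Il1r2, Tnf, Tnfrsf1a, Tnfrsf1b, Nfkbia and Tnfaip3. They were chosen by name, and all 10 were found by their Entrez IDs among the 36530 features of the count tables. Levels were taken in every cluster named by the authors and in each of 3 mouse melanomas, of which 1 was untreated and the others were taken during vemurafenib treatment, 1 in regression and 1 in progression. Vemurafenib inhibits the mutant Braf kinase. All 3 tumors came from C57BL/6 mice that carried Braf LSL.V600E and Tyr.CreER among their alleles, in which tamoxifen applied to the skin of adult mice activates Cre. The Tyr promoter limits Cre to the melanocyte lineage, so that the stroma and the immune cells of the tumors are those of the host. Some mice of the study also carried a Rosa26 LSL.tdTomato reporter. The labels give neither the age of the mice nor the length of treatment. Cells were sorted from dissociated tumors and their RNA was counted by unique molecular identifiers (UMIs), tags that let each captured molecule be counted once, read from transcript 3′ ends.

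Interleukin-1 alpha and beta bind the receptor encoded by Il1r1, which recruits an accessory protein and activates the transcription factor NF-kB. The receptor antagonist encoded by Il1rn occupies Il1r1 without signaling, and the decoy receptor encoded by Il1r2 binds interleukin-1 without transmitting a signal. TNF acts through Tnfrsf1a, found on most cell types, and Tnfrsf1b, found mainly on immune and endothelial cells. Both pathways end at NF-kB, which induces Nfkbia, the inhibitor that retains NF-kB in the cytoplasm, and Tnfaip3, the ubiquitin-editing enzyme A20, so that both genes serve as feedback inhibitors. In skin and tumors, neutrophils, monocytes and macrophages are known sources of interleukin-1 beta.

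The tables held 4095 untreated, 3726 regressed and 4849 progressed cells in 25 clusters, with 22202192, 12413268 and 26948940 UMIs and medians of 4496, 2658 and 4566 UMIs per cell. No cell name occurred in more than 1 tumor, but the names are numbers and not barcodes. Each condition was 1 tumor, so no difference between conditions has a replicate check and no test was made. Levels are UMIs for each 1000000 UMIs of a cell group (CPM), and intervals are exact 95% intervals that cover counting error only. A gene is said to have risen or fallen where its CPM differed at least 2-fold between tumors, the interval of the log2 ratio left out 0 and both tumors together held at least 10 UMIs. Marker genes fit the names of the main clusters: all 6 neutrophil markers were highest in Neutrophils, all 6 mast cell markers in Mastcells and all 4 endothelial markers in Bloodvessel. In Monocytes2, 6 of 8 dendritic cell markers were at their highest, so that this cluster was kept apart from the Macrophages and Monocytes1 clusters. Haemoglobin genes held 0.272% of untreated, 3.96% of regressed and 0.00848% of progressed UMIs.

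A window around a transcription start of each feedback inhibitor is shown because it carries the 10-base kappa B consensus, the sequence class that NF-kB proteins bind. The sequences are those of RefSeq on GRCm38.p6 and run from 250 bases before to 50 bases after the start, and capitals mark consensus matches on either strand. The Nfkbia window is chr12:55492598-55492897 on the minus strand, with a match at bases 222 to 231 on the opposite strand. Tnfaip3 has 2 windows, and the one shown is chr10:19015361-19015660 on the minus strand, with matches at bases 126 to 135 on the same strand and 239 to 248 on the opposite strand.
Nfkbia: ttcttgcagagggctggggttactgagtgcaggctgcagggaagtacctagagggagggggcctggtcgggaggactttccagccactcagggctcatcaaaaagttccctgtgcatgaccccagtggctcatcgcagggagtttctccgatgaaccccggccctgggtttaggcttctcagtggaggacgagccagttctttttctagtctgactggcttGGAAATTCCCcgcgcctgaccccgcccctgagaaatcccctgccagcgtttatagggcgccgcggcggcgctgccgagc
Tnfaip3: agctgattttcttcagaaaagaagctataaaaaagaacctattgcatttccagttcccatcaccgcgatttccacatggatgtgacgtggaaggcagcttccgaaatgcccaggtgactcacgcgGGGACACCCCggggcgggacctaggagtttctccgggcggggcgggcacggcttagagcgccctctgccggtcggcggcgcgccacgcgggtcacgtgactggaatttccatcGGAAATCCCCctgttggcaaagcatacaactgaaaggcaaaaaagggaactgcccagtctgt
Promoter windows were matched for 10 of 10 genes, 14 windows in all, and 3 windows held the consensus: the window of Nfkbia, 1 of the 2 windows of Tnfaip3 and 1 of the 2 windows of Il1r1. Of all 32851 windows in the table, 6.93% held a match, with overlap between matches allowed. A match describes letters in a window and is not a measured binding site.

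Summed over all cells, the ligand Il1b stood at 1156 CPM without treatment, 419.7 CPM in regression and 49.5 CPM in progression, the order of tumors in which values are given throughout. Il1b thus fell in the regressed against the untreated tumor (log2 ratio −1.46, −1.50 to −1.42), and the progressed tumor lay lower still (−3.08 against the regressed tumor, −3.17 to −3.00). Il1a, the other agonist, was sparse at 14.0, 1.29 and 0.705 CPM and was lower in both treated tumors than in the untreated one. The antagonist Il1rn was near level in the untreated and regressed tumors (44.95 and 41.89 CPM) and stood at 8.87 CPM in the progressed tumor. The decoy receptor Il1r2 stood at 137.1, 103.8 and 26.35 CPM, whereas the signaling receptor Il1r1 stood at 113.6, 61.6 and 77.3 CPM. Tnf differed little in the sums over all cells, at 21.9, 21.9 and 17.7 CPM. Of the 10 genes, 3 fell and 0 rose in the regressed against the untreated tumor (Il1a, Il1b and Tnfaip3), where 20.1% of all features passed the same 2-fold rule. In the progressed against the regressed tumor 4 fell (Il1b, Il1rn, Il1r2 and Tnfrsf1b) and 1 rose (Tnfrsf1a), against 20.4% of all features. In the progressed against the untreated tumor 4 fell (Il1a, Il1b, Il1rn and Il1r2) and 0 rose, against 11.3%. The median log2 ratio of the 10 genes in these comparisons was −0.83, −0.59 and −0.72, and that of all features was 0.18, −0.17 and 0.01. In such sums, fewer cells of a type and less RNA per cell cannot be told apart. Scaling by the trimmed mean of M-values (TMM) moved the regressed against the untreated ratios by −0.23, and 6 of the 10 genes then passed, with Il1r1, Tnfrsf1a and Nfkbia added.

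**Figure D1:**
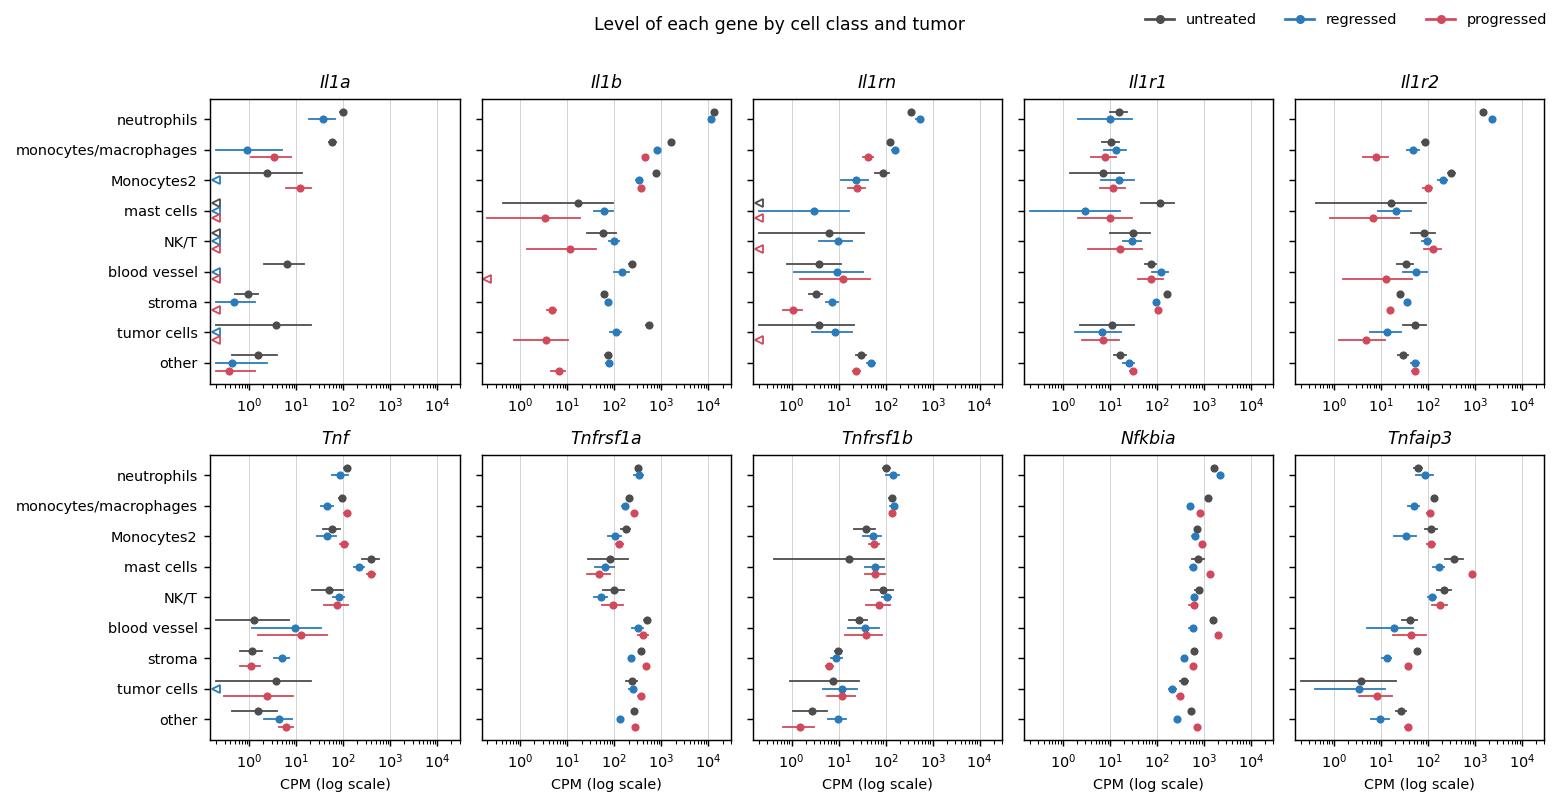
Level of each gene in CPM (log scale) by group of cells and tumor, 1 tumor per condition, with exact Poisson 95% intervals as bars and open triangles where no UMI was counted. In the untreated tumor Il1b and Il1r2 are highest in neutrophils, Il1r1 in stroma and Tnf in mast cells, and the 4 progressed neutrophils are not drawn; "other" holds dividing, undefined, mitochondria-rich and red blood cells.

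Neutrophils held most Il1b in the untreated and regressed tumors. The 391 untreated neutrophils were 9.55% of cells and 6.85% of UMIs, and they held 20163 UMIs, or 78.6%, of the tumor's Il1b. The 216 regressed neutrophils were 5.80% of cells and held 64.6% of its Il1b. Only 4 progressed cells (0.0825%) carried that name, with 155 UMIs of Il1b, or 11.6%. As a level, Il1b stood at 13256 CPM (13074 to 13440) in untreated neutrophils, at 11303 CPM (10924 to 11692) in regressed ones and at 21961 CPM (18640 to 25703) in the 4 progressed ones. In CPM, the level within neutrophils differed far less between the untreated and regressed tumors (log2 ratio −0.23) than the level over all cells. With TMM scaling, Il1b in neutrophils stood at −1.06 and passed 2-fold, against −1.69 over all cells, so that the difference within neutrophils depended on the scaling. A median untreated neutrophil held 43 UMIs of Il1b, with a maximum of 241, and a median regressed neutrophil held 12.5, at median depths of 3257 and 1252 UMIs per cell. Il1b was counted in 385 of 391 and 203 of 216 neutrophils, or 96.6% and 92.3% after each cell was thinned to 1000 UMIs.

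Levels and make-up of the tumors were then exchanged in a calculation, with each cluster's share of UMIs taken from one tumor and its Il1b level from the other. The 12 clusters with at least 20 cells in both the untreated and the regressed tumor held 47.3% and 36.5% of their UMIs, since the main stroma clusters were not shared, so that levels over them differ from those of the whole tumors. Over these clusters Il1b stood at 2378 CPM in the untreated and 1022 CPM in the regressed tumor. The regressed levels with the untreated make-up gave 1850 CPM, and the untreated levels with the regressed make-up gave 1506 CPM. Over the 14 clusters shared by the untreated and progressed tumors, which leave out neutrophils and held 77.9% and 91.3% of UMIs, Il1b stood at 306.7 and 47.5 CPM. There the progressed levels with the untreated make-up gave 101.7 CPM and the untreated levels with the progressed make-up gave 179.9 CPM, so that both terms lay between the observed values.

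Neutrophils were also the main holders of the decoy receptor in the untreated and regressed tumors. The 4 progressed neutrophils held 9 UMIs of Il1r2, or 1.27% of that tumor's. Il1r2 stood at 1457 CPM (1397 to 1519) in untreated and 2329 CPM (2159 to 2509) in regressed neutrophils, which held 72.8% and 53.8% of its UMIs. Il1r1 was counted 24 and 3 times in the same cells, and Il1r2 made up 98.9% and 99.6% of the summed UMIs of both receptors. The antagonist Il1rn stood at 353.7 and 531.0 CPM and made up 2.60% and 4.49% of the UMIs of Il1rn and Il1b together. Il1b and Il1r2 were counted together in 337 of 391 untreated and 165 of 216 regressed neutrophils, 65.3% and 72.5% after thinning. Of the 10 genes, 1 fell in regressed against untreated neutrophils, Il1a (99.3 against 37.0 CPM, log2 ratio −1.43), and 0 rose, where 24.7% of all features passed the rule. Il1a rested on few cells: it was counted in 44 of 391 untreated neutrophils, and 6 of them held 72 of its 151 UMIs. After thinning, 0 of the 10 genes passed. All features had a median log2 ratio of 0.65 in this comparison, and with TMM, which moved the ratios by −0.83, the differences of Il1rn (0.59), Il1r2 (0.68), Tnfrsf1a (0.05), Tnfrsf1b (0.48), Nfkbia (0.39) and Tnfaip3 (0.50) changed sign, to between −0.16 and −0.79.

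**Figure D2:**
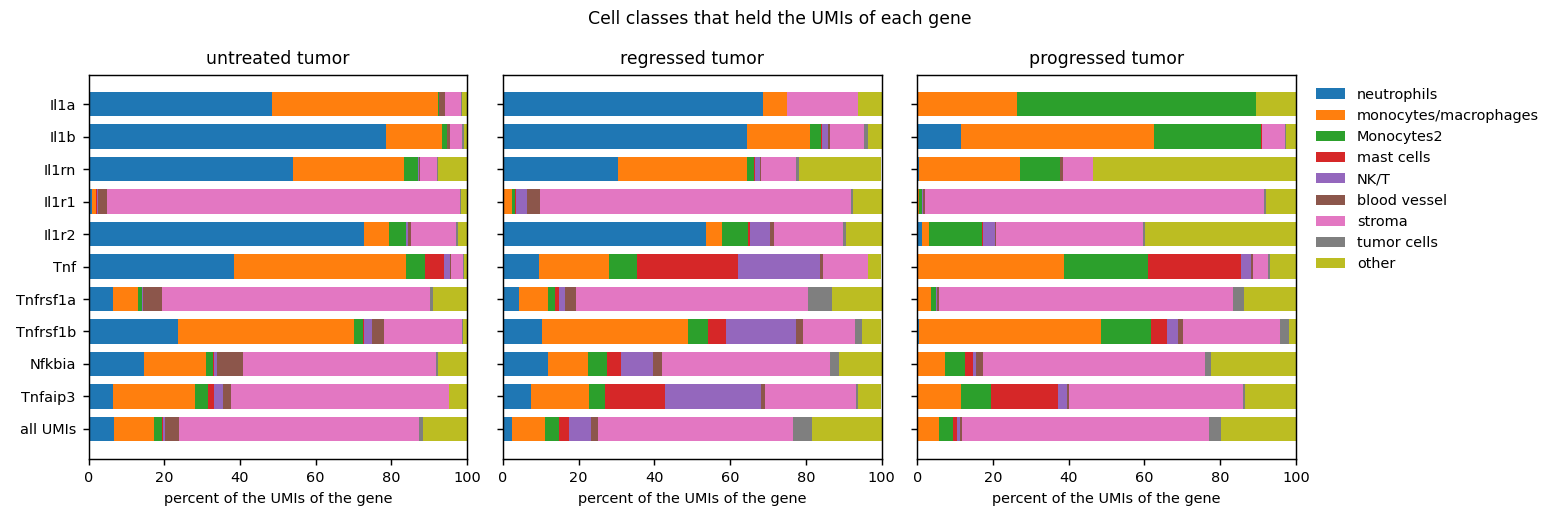
Share of each gene's UMIs (percent, bars from 0 to 100) by class of cells in each tumor, with 1 tumor per condition. Neutrophils hold 78.6%, 64.6% and 11.6% of Il1b in the untreated, regressed and progressed tumors, whereas stroma holds 93.3%, 82.2% and 89.7% of Il1r1.

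In monocytes and macrophages (the Macrophages and Monocytes1 clusters together), Il1b and the feedback inhibitors fell in the regressed against the untreated tumor, and Tnf and Tnfaip3 rose in the progressed against the regressed tumor in the sum of the class. Macrophages and Monocytes1 counted 312 and 225 untreated, 143 and 197 regressed, and 339 and 53 progressed cells, so that the mix of the class differed. Il1b stood at 1627, 794 and 447.8 CPM in the class, Il1rn at 126, 161.9 and 42.3 CPM and Il1r2 at 87.0, 48.5 and 7.93 CPM. In the regressed against the untreated tumor 5 of 10 genes fell: Il1a (58.3 against 0.915 CPM, 1 UMI in the regressed tumor), Il1b (−1.04), Tnf (−1.05), Nfkbia (−1.26) and Tnfaip3 (−1.41), and 12.2% of all features passed. Il1b and Tnf lay close to the 2-fold bound, and 3 of 10 genes passed once the deepest 5% of cells were left out. Progressed against regressed, Tnf (1.41) and Tnfaip3 (1.13) rose and Il1rn (−1.94) and Il1r2 (−2.61) fell, 4 of 9 genes against 15.9% of all features. Taken by cluster, Tnf passed 2-fold in neither Macrophages nor Monocytes1 in these comparisons with the regressed tumor, and Tnfaip3 passed in Macrophages (−1.88 and 1.48) but not in Monocytes1 (−0.96 and −0.38). Progressed against untreated, 4 of 10 fell (Il1a, Il1b, Il1rn and Il1r2), against 8.45%.

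The clusters of the class did not move alike. In Macrophages, Il1b stood at 913.2 CPM (860.2 to 968.7), 144.8 CPM (102.9 to 197.9) and 332.7 CPM (301.7 to 366.0), lowest in the regressed tumor. In Monocytes1 it stood at 2395, 1006 and 1033 CPM, with no difference between the treated tumors past 2-fold. Il1b was counted in 51.6%, 17.5% and 18.9% of Macrophages, and in 35.5%, 13.0% and 13.0% after thinning. Stroma cells of the regressed tumor, at a median depth of 3152 UMIs against 1388 in Macrophages, held a UMI of Il1b in 21.9% of cells, 6.98% after thinning, so that the unthinned share of regressed Macrophages was not above that of stroma. Il1rn in Monocytes1 stood at 206.4, 204.0 and 40.2 CPM, and the antagonist's part of the UMIs of Il1rn and Il1b was 7.93%, 16.9% and 3.75% there, against 5.31%, 18.8% and 11.4% in Macrophages. Il1a was counted in 30 of 225 untreated Monocytes1 cells, 6 of which held 89 of its 126 UMIs. In Monocytes2, the cluster highest in dendritic cell markers, Il1b stood at 763.6, 335.6 and 374.3 CPM and Il1r2 at 313.9, 204.6 and 98.8 CPM. The 161 progressed cells of Monocytes2 held 28.4% of the Il1b, 22.3% of the Tnf and 12 of the 19 Il1a UMIs of that tumor.

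In stroma, Il1b and the neutrophil transcripts S100a8 and S100a9 were both lowest in the progressed tumor. In the regressed tumor Il1b stood slightly higher in CPM than in the untreated one, whereas those transcripts stood lower. The Il1b log2 ratio was 0.28, which did not pass 2-fold, and 0.04 with TMM. Stroma held 59.5, 72.4 and 4.61 CPM of Il1b, with a UMI in 25.2%, 21.9% and 1.99% of cells (6.43%, 6.98% and 0.353% after thinning, at median depths of 4654, 3152 and 4388 UMIs). S100a8 and S100a9, which were highest in Neutrophils, stood together at 647.9, 428.0 and 4.55 CPM in the same stroma. The pair was not limited to neutrophils, at 3179 CPM in untreated Monocytes1 against 215512 CPM in untreated neutrophils. For each 100 UMIs of that pair, untreated stroma held 9.19 UMIs of Il1b (8.55 to 9.86) and untreated neutrophils 6.15. Regressed stroma held 16.9 (15.3 to 18.7) and regressed neutrophils 12.2. Stroma thus lay above neutrophils by more than counting error in both tumors, and below Monocytes1 of the same tumor (75.4 and 118.8). Macrophages stood at 101 in the untreated and 21.8 (15.0 to 31.0) in the regressed tumor, where their interval overlapped that of stroma. In progressed stroma, where neutrophils were nearly absent, 81 UMIs of Il1b stood beside 80 UMIs of the pair. Il1r2 counts in stroma were higher for each 100 UMIs of the pair (3.96 and 8.58) than in neutrophils (0.676 and 2.50). Il1rn stood at 0.504 and 1.71 in stroma and at 0.164 and 0.571 in neutrophils. The part of free RNA in the Il1b and Il1rn differences of stroma was not tested.

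**Figure D3:**
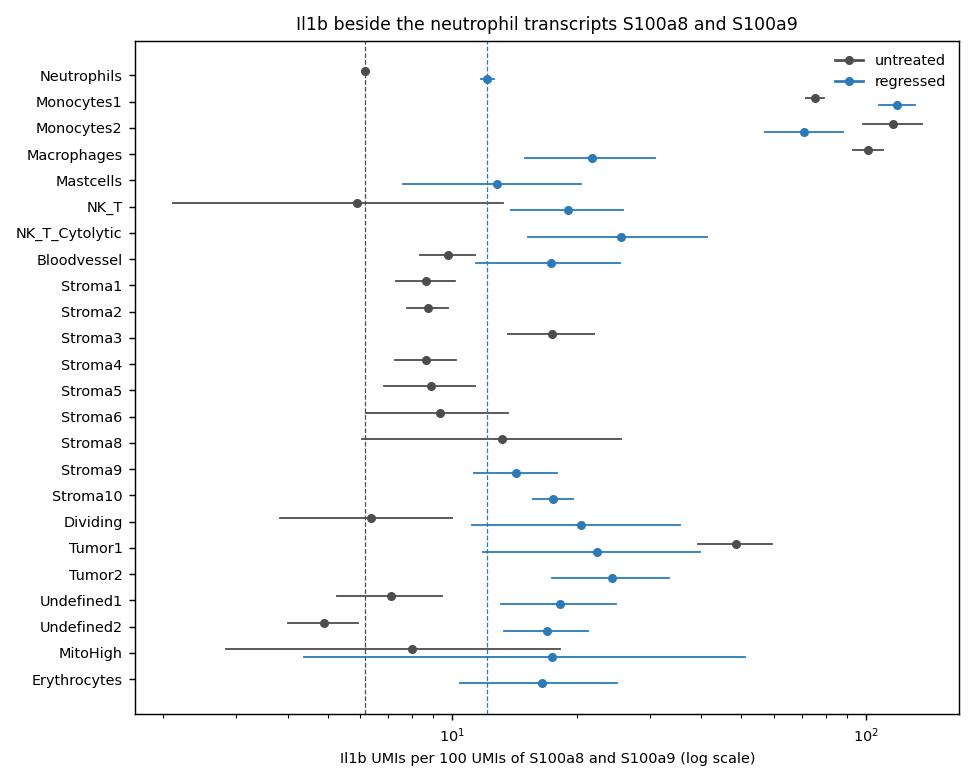
Il1b UMIs for each 100 UMIs of S100a8 and S100a9 (log scale) by cluster in the untreated and regressed tumors, with exact 95% intervals. Clusters with at least 20 UMIs of the pair are drawn, and the dashed line is the ratio in the neutrophils of that tumor. Untreated stroma clusters stand at 8.64 to 17.4 and untreated neutrophils at 6.15, and untreated Monocytes1 (75.4) lies far above both.

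A few cells held most of the Il1b of some other clusters. In untreated Tumor1, 126 of 142 UMIs of Il1b lay in 1 cell, and its level was 643.7 CPM with and 78.7 CPM without that cell. In untreated Bloodvessel, 3 cells held 141 of 188 UMIs, and the level was 241.3 CPM with and 65.8 CPM without them.

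Tnf was spread over macrophages, neutrophils, mast cells and lymphocytes. Neutrophils held 38.4% of its UMIs in the untreated tumor (187 UMIs, 122.9 CPM), 9.56% in the regressed tumor (26 UMIs, 87.4 CPM) and 0 UMIs in the 4 progressed cells. Mast cells held 397.1 CPM (254.4 to 590.8) in the untreated, 221.8 CPM (173.9 to 278.9) in regression and 393.5 CPM (325.4 to 471.6) in progression, from 16, 106 and 85 mast cells. No difference in Tnf between mast cells of the regressed and progressed tumors passed 2-fold. They held 4.93%, 26.8% and 24.6% of all Tnf UMIs with 0.272%, 2.65% and 1.10% of all UMIs. Tnf was counted in 50%, 33.0% and 44.7% of mast cells, 26.7%, 16.9% and 22.9% after thinning, at median depths of 3070, 2422 and 2984 UMIs. In stroma, taken as background, Tnf was counted in 0.571%, 1.67% and 0.555% of cells, 0.115%, 0.577% and 0.0588% after thinning. Whether stroma holds Tnf of its own was not tested. In the small untreated group, 6 of 16 cells held 22 of 24 UMIs. Macrophages held 125.6, 89.1 and 143.0 CPM of Tnf, and Monocytes1 held 61.4, 31.6 and 12.1 CPM. Monocytes and macrophages together held 45.4%, 18.4% and 38.7% of the Tnf UMIs, and NK and T cells held 21.7% of those of the regressed tumor. Most of the latter lay in the NK_T cluster, at 104 CPM (78.6 to 135.1) in 180 regressed cells, whereas 58 cells of NK_T_Cytolytic held 3 UMIs.

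Most UMIs of the signaling receptor Il1r1 lay in stroma in all 3 tumors. Stroma held 93.3%, 82.2% and 89.7% of its UMIs, at 167.1 CPM (160.5 to 174.0), 97.9 CPM (90.4 to 105.9) and 106.3 CPM (101.5 to 111.2). It was counted in 42.2%, 24.3% and 35.2% of stroma cells, and in 13.4%, 8.43% and 10.2% after thinning. Macrophages, taken as background at median depths of 3429, 1388 and 3450 UMIs, held a UMI of it in 2.24%, 2.10% and 2.95% of cells. Different clusters held most of the stroma in each tumor: Stroma2, Stroma4 and Stroma1 (1144, 599 and 472 cells) in the untreated, Stroma10 and Stroma9 (1537 and 310) in the regressed, and Stroma6, Stroma4, Stroma5 and Stroma7 (1255, 826, 754 and 444) in the progressed tumor. Il1r1 stood at 270.4 CPM in untreated Stroma1 and 212.5 CPM in untreated Stroma2, at 131.6 CPM in regressed Stroma9 and 85.8 CPM in regressed Stroma10, and at 184.1 CPM in progressed Stroma6. In Stroma4, Il1r1 rose from 39.2 CPM in the untreated to 89.7 CPM in the progressed tumor (log2 ratio 1.19, 0.87 to 1.53), while stroma as a whole stood lower in the progressed tumor (−0.65). Il1r2 made up 13.3%, 27.3% and 12.8% of the UMIs of both receptors in stroma, and 54.7%, 62.8% and 25.4% over all cells.

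Blood vessel cells held 75.7, 121.3 and 76.4 CPM of Il1r1, and Tumor1 cells held 13.6, 6.62 and 7.24 CPM.

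Outside the myeloid cells, stroma held 11.9%, 18.3% and 38.7% of the Il1r2 UMIs, at 25.6, 36.7 and 15.6 CPM. Some small groups of cells held higher levels of Il1r2. Stroma8, with 23, 18 and 21 cells, held 164.2, 1018 and 336.5 CPM, and 6 cells held 60 of its 73 UMIs in the regressed tumor. Undefined2, a keratin-rich cluster of 80, 102 and 209 cells, held 51.7, 103.5 and 115.9 CPM of Il1r2 and 59.6, 93.8 and 52.2 CPM of Il1rn. In the progressed tumor, dividing, undefined, mitochondria-rich and red blood cells together held 53.6% of the Il1rn and 39.9% of the Il1r2 UMIs.

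The TNF receptors differed in where they were counted. Tnfrsf1a was widespread, with 371.2, 223.5 and 472.9 CPM in stroma, 234.9, 246.6 and 364.4 CPM in tumor cells and 484, 312.5 and 413.9 CPM in blood vessel cells. Stroma held 70.8%, 61.5% and 77.5% of its UMIs. Among stroma clusters of at least 20 cells it ranged from 211.8 CPM in Stroma3 to 446.0 CPM in Stroma4 of the untreated tumor and from 255.7 CPM in Stroma3 to 660.5 CPM in Stroma2 of the progressed tumor. It stood at 216.4 and 246.6 CPM in Stroma10 and Stroma9, the main clusters of the regressed tumor. Tnfrsf1b was mostly myeloid, with 134.1, 149.1 and 140.0 CPM in monocytes and macrophages, which held 46.7%, 38.6% and 48.2% of its UMIs. Tnfrsf1b made up 8.33%, 15.3% and 3.94% of the UMIs of both TNF receptors over all cells, 24.6% and 30.5% in untreated and regressed neutrophils, and 2.59%, 3.88% and 1.34% in stroma.

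The feedback inhibitors were lowest in the regressed tumor in stroma, Macrophages and blood vessel cells. In stroma Tnfaip3 stood at 58.9 CPM (54.95 to 63.04), 13.2 CPM (10.57 to 16.36) and 38.4 CPM (35.53 to 41.38). It fell in the regressed against the untreated tumor (−2.15, −2.49 to −1.83) and rose in the progressed against the regressed tumor (1.54, 1.21 to 1.88). Nfkbia followed the same order at 630.9, 374.3 and 583.0 CPM without passing 2-fold. In Macrophages Nfkbia stood at 1001, 386 and 840.8 CPM and Tnfaip3 at 163.6, 44.5 and 124.1 CPM, and in blood vessel cells Nfkbia stood at 1561, 587.6 and 1999 CPM. Mast cells of the progressed tumor held 877.8 CPM of Tnfaip3, against 170.2 CPM in the regressed tumor (log2 ratio 2.37, 1.95 to 2.81). By cluster, Tnfaip3 stood at 88.4 CPM in untreated Stroma1 and 74.0 CPM in untreated Stroma2, at 12.6 CPM in regressed Stroma10 and 15.9 CPM in regressed Stroma9, and at 51.1 CPM in progressed Stroma6. In Stroma4 it stood at 19.4 CPM in the untreated and 20.7 CPM in the progressed tumor, and Nfkbia at 615.0 and 714.2 CPM. The 20 regressed Stroma4 cells held 484.9 CPM of Nfkbia. Stroma1 also held the highest level of Nfkbia among untreated stroma clusters of at least 20 cells, 989.6 CPM. Tumor cells held little Tnfaip3, at 3.79, 3.36 and 8.34 CPM. Regressed neutrophils went the other way in CPM, with 2191 against 1675 CPM of Nfkbia, a direction that TMM turned.

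Counted over the 10 genes in stroma, 2 rose (Il1rn and Tnf) and 1 fell (Tnfaip3) in the regressed against the untreated tumor, where 20.3% of all features passed. In the progressed against the regressed tumor, Tnfrsf1a and Tnfaip3 rose and Il1b, Il1rn, Il1r2 and Tnf fell, 6 of 9 genes against 20.4%. In the progressed against the untreated tumor, Il1a, Il1b and Il1rn fell, 3 of 10 genes against 8.86%. Il1a had 0 UMIs in the progressed tumor against 13, and was 5.41-fold lower with the floor of 3 UMIs in place of 0. After thinning, 1 of the 10 genes passed there, Il1b. Stroma counts of Tnf are those taken as background above, so that its values here may describe a background that differed between tumors. Whether they do was not tested. The stroma values of Il1rn and Tnf rested on 46 and 16 UMIs in the untreated and 47 and 32 UMIs in the regressed tumor.

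**Figure D4:**
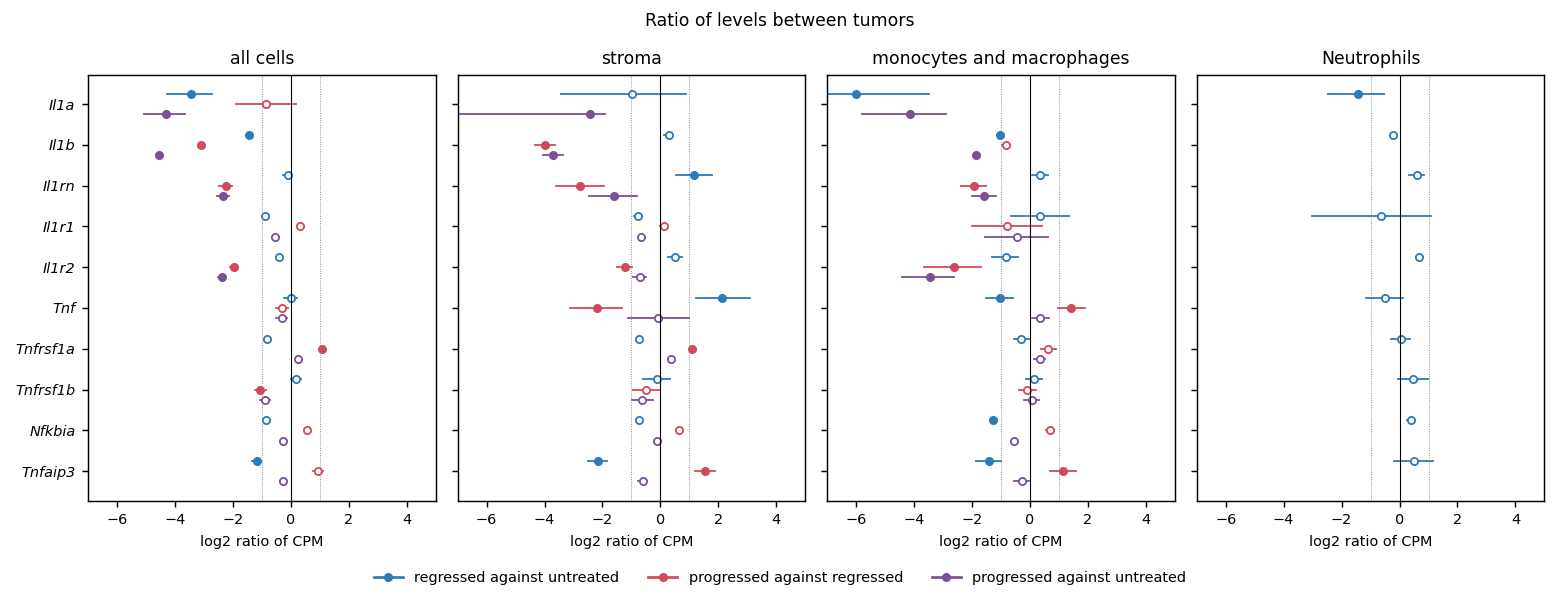
Log2 ratio of CPM between tumors for each gene in 4 groups of cells, with exact 95% intervals as bars (drawn to −7), filled points where the 2-fold rule was passed and dotted lines at 2-fold. The comparisons share tumors; Tnfaip3 in stroma lies at −2.15 for regressed against untreated and at 1.54 for progressed against regressed.

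Immediate early genes, which are known to rise during tissue dissociation, moved in the same order as the feedback inhibitors in some groups of cells and not in others. The sum of 11 such genes stood at 15687, 9083 and 15348 CPM in stroma, 14702, 9365 and 16061 CPM in Macrophages, and 13936 and 23302 CPM in untreated and regressed neutrophils. In mast cells it stood at 35096 CPM in the regressed and 57127 CPM in the progressed tumor. In blood vessel cells the sum was 7318, 8409 and 13970 CPM beside Nfkbia at 1561, 587.6 and 1999 CPM, so that it was not lowest in the regressed tumor. In Monocytes1 it was nearly flat at 8466, 7936 and 8972 CPM beside Nfkbia at 1479, 556 and 783.8 CPM. In Stroma4 it stood at 19886, 13496 and 14546 CPM beside Nfkbia at 615.0, 484.9 and 714.2 CPM. Both were lowest in the regressed tumor, which held 20 Stroma4 cells. The part of dissociation in the Nfkbia and Tnfaip3 values was not tested.

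Among other genes of the NF-kB pathway in stroma, most that passed 2-fold were lower in regression. Of 30 listed targets and regulators, 29 could be compared in stroma: 2 rose and 10 fell in the regressed against the untreated tumor (median log2 ratio −0.74), and 9 rose and 2 fell in the progressed against the regressed tumor (0.46). The same rule was passed by 20.3% and 20.4% of all features, at median log2 ratios of 0.16 and −0.23. Il6, the interleukin-6 cytokine, stood at 158.8, 5.76 and 104.5 CPM in stroma, and Cxcl1, a neutrophil-attracting chemokine, stood at 719.5, 86.9 and 845.1 CPM. Ccl2, a monocyte-attracting chemokine, stood at 319.7, 80.9 and 946.8 CPM and rose in the progressed against the untreated tumor. Vcam1, a leukocyte adhesion molecule, stood at 203.1, 35.0 and 65.7 CPM and fell in the progressed against the untreated tumor. In monocytes and macrophages the list counted 1 up and 9 down of 29, and then 8 up and 2 down, where 12.2% and 15.9% of all features passed. There Cxcl1 stood at 267.8, 17.4 and 91.8 CPM and Ptgs2, the inducible cyclooxygenase, at 110.1, 45.7 and 11.2 CPM. Neutrophils counted 6 up and 2 down of 28 with a median of 0.33, below the 0.65 of all features. Of all features 24.7% passed there, 1921 up and 141 down. Progressed against untreated, 2 rose and 3 fell in stroma, where 8.86% of all features passed. All these comparisons share tumors, and the regressed tumor enters both of the first.

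**Figure D5:**
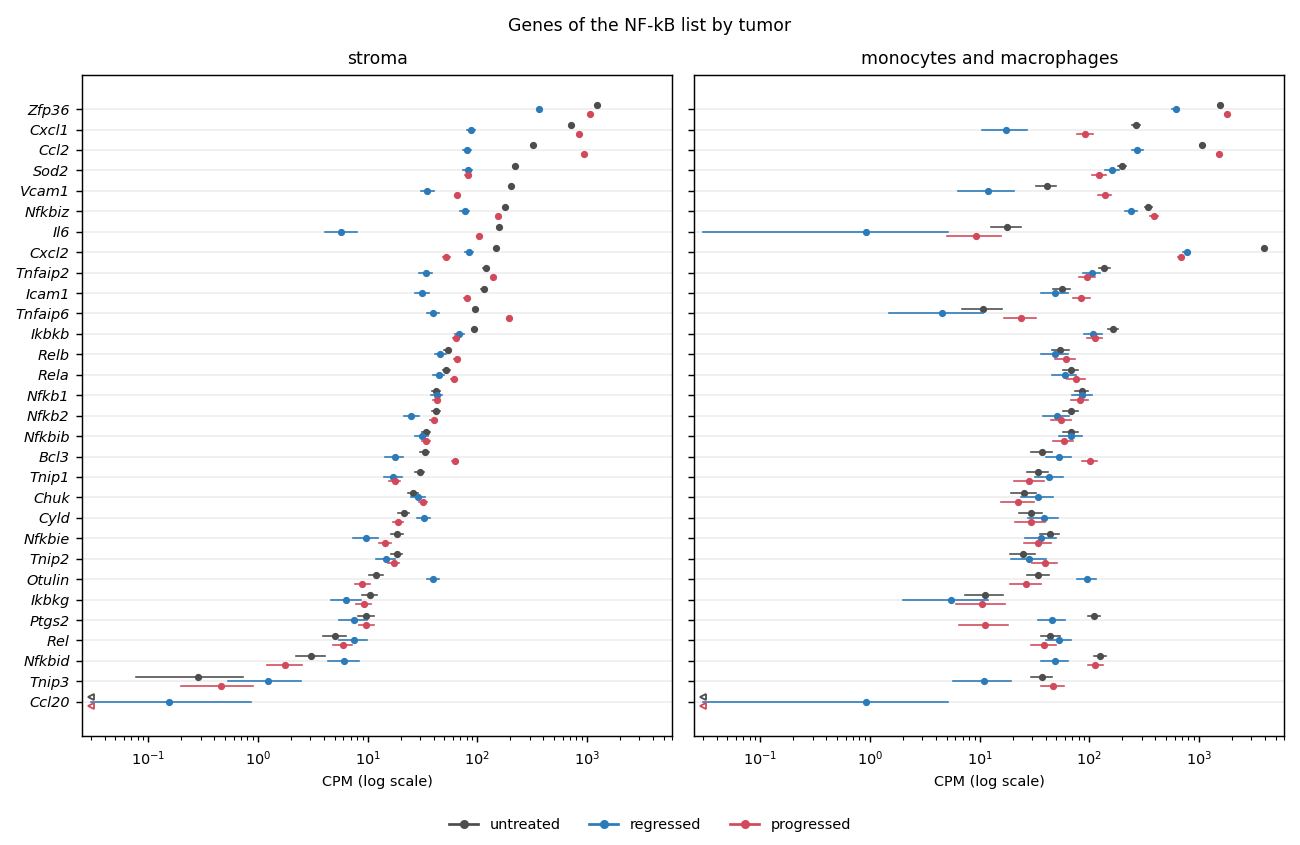
CPM (log scale) of the 30 listed NF-kB pathway genes in stroma and in monocytes and macrophages of each tumor, with exact Poisson 95% intervals as bars and open triangles where no UMI was counted, ordered by untreated stroma. Il6 in stroma stands at 158.8 CPM without treatment, 5.76 CPM in regression and 104.5 CPM in progression.

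Other genes of the interleukin-1 and TNF pathways were counted in the same way. Both lists mix cytokines and receptors with signaling and processing genes, such as Myd88 and Casp1 or Traf2 and Ripk1. Of 24 interleukin-1 pathway genes compared in stroma, 6 rose and 1 fell in the regressed against the untreated tumor. In the progressed against the regressed tumor, 1 rose and 7 fell. Il1rap, the accessory chain of the interleukin-1 receptor, which was named after its values were seen, stood at 8.95, 18.1 and 6.99 CPM in stroma. Over all cells Il1rl1, the interleukin-33 receptor, stood at 6.58, 67.4 and 24.1 CPM. Of 23 TNF pathway genes, 3 rose and 2 fell in the first of these comparisons, and of 24 in the second, 3 rose and 5 fell. Over all features in stroma, 2329 rose and 991 fell in the first comparison (20.3% called) and 645 rose and 2701 fell in the second (20.4%), so that more features rose than fell in the first and more fell than rose in the second, as in the interleukin-1 list. Ltb, the lymphotoxin beta ligand of lymphocytes, stood at 1.07, 9.81 and 0.398 CPM in stroma. In the largest stroma cluster of each tumor, 7 NK and T cell markers together followed the same order. They stood at 4.25 CPM in untreated Stroma2, 104.8 CPM in regressed Stroma10 and 3.51 CPM in progressed Stroma6. The part of free RNA in the Ltb values was not tested. Tnfrsf12a, the receptor of the cytokine TWEAK, rose in stroma from 85.2 CPM in the untreated to 283.7 CPM in the progressed tumor.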

How the data were processed

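Tumors were dissociated and cells were profiled with the Chromium 3′ v2 kit. The deposited tables hold whole counts of UMIs per Entrez gene and cell, 1 table per tumor, made by the authors from uniquely mapped reads on exons in sense orientation, and a deposited table of the other unit gives each cell's tumor and cluster name. The submitters' processing notes name GRCm38, GSNAP and Seurat 2.2.0. The annotation release is not given in the sources used here. The authors left out cells under 300 UMIs. Table sums exceeded the deposited totals by 5.17%, 6.09% and 4.42% (untreated, regressed, progressed), and the sums were used. Members and gene lists were chosen with earlier results of these data known. A further allele that the mice of all 3 groups carried is not reported here.

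Counts were summed by cluster, class and tumor with Python 3.11.15, numpy 2.4.6, scipy 1.17.1 and pandas 2.3.3. Poisson, Clopper-Pearson and conditional binomial intervals were exact at 95%. A group at 0 was set to a floor of 3 UMIs. A ratio called a bound rests on that floor and is not the limit of an interval. Clusters were compared from 20 cells in each tumor. Besides the 10 members, up to 2 genes of the pathway lists per direction and comparison were named, those with the largest ratios among genes with at least 30 UMIs that passed 2-fold. Cells were thinned to 1000 UMIs, leaving out 92, 703 and 55 shallower cells. Doublets were not called. Scripts were tested on simulated data.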

Additional observations from a re-analysis of the deposited data

Results flagged for a closer look

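With 1 tumor per condition, differences between clusters in the direction of a change were not tested. The values below are log2 ratios of CPM that passed 2-fold in opposite directions in different clusters. For Il1b, progressed against regressed, Macrophages stood at 1.20, whereas Bloodvessel stood at -2.92 (a bound, with 0 progressed UMIs), Dividing at -3.71, Mastcells at -4.18, NK_T_Cytolytic at -2.19, Stroma4 at -5.89, Tumor1 at -5.36, Undefined1 at -4.34 and Undefined2 at -3.35. These clusters held few UMIs of Il1b in the progressed tumor, and regressed Stroma4 held 4 UMIs in 20 cells. S100a8 and S100a9 together also stood lower in the progressed tumor in each of them. They stood at 474.1 and 3.36 CPM in regressed and progressed Mastcells, but at 547.5 and 450.1 CPM in Undefined2. In Macrophages, where Il1b rose, they stood at 664.4 and 3.16 CPM. The part of free RNA in these ratios was not tested.

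For Il1r2, progressed against untreated, Stroma8 stood at 1.04 and Undefined2 at 1.17, whereas Macrophages stood at -2.52, Monocytes1 at -4.03, Monocytes2 at -1.67, Stroma4 at -1.37, Tumor1 at -3.72 and Undefined1 at -2.10. Regressed against untreated, Il1r2 stood at 1.66 in Undefined1 and 1.001 in Undefined2, against -1.18 in Monocytes1 and -1.68 in Tumor1 (a bound).

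For Tnf, progressed against untreated, Undefined2 stood at 1.82, with 22 UMIs in 5 progressed cells, and Monocytes1 at -2.35. For Tnfaip3 in the same comparison, Dividing stood at 3.88, against -1.34 in Monocytes1 and -1.58 in Stroma2 (a bound).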

How the results depend on the processing

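Each condition holds 1 tumor, so no difference carries a biological error, and the regressed cells were shallower than the others. No paired analysis was possible because each group holds 1 tumor. Of 2548 recomputed log2 ratios, 175 changed sign, 16 of them from a ratio that had passed 2-fold. After thinning to 1000 UMIs, progressed against untreated ratios turned for Il1r1 in Dividing (1.36 to -0.36), Tnfaip3 in Dividing (3.88 to -1.04), Il1b in Stroma2 (-1.18 to 0.92), Tnfaip3 in Stroma2 (-1.58 to 0.54), Il1b in Stroma8 (-2.96 to 0.13) and Tnf in Undefined2 (1.82 to -2.98). Progressed against regressed, Il1r2 in Monocytes1 (-2.86 to 0.49) and Tnf in Undefined2 (2.29 to -2.75) turned, and regressed against untreated, Tnfrsf1a in NK_T (-1.20 to 0.25) and Tnfaip3 in Undefined1 (-1.49 to 0.85). With the deepest 5% of cells left out, Il1b (0.088) and Il1r2 (1.12) in Tumor1 turned for regressed against untreated, from -2.70 and -1.68, and Tnf in Undefined2 stood at -2.05 against the regressed and -1.57 against the untreated tumor. Without the cell with the most UMIs of the gene, an alternative chosen after seeing the data, Il1b (0.17) and Il1r2 (0.59) in Tumor1 turned. A group left with 0 UMIs was set to the floor of 3 UMIs here too, so that a sign can turn by the floor alone. Such values are not marked in this list. Regressed Tumor1 held 0 UMIs of Il1r2, so that its turned values rest on the floor and are no reversal of counts. The causes were not tested.

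Of 93 recomputed counts of genes past 2-fold, 83 stayed within 1.5 times the reported count, but a similar count can hold other genes. Progressed against regressed, Tnfrsf1b over all cells no longer passed with TMM, after thinning or with equal weight per cell. In that comparison Il1r2 was lost in stroma with TMM and in monocytes and macrophages after thinning. Regressed against untreated, Il1rn in stroma was lost with TMM and after thinning. Tnf in monocytes and macrophages was lost there with equal weight per cell and with Monocytes2 added. With TMM, the counts were 6 over all cells and 3 in neutrophils for regressed against untreated, the latter with Il1b and Tnf added. After thinning, they were 1 in stroma (progressed against untreated) and 0 in neutrophils. Without the 5% deepest cells, 3 genes passed in monocytes and macrophages (regressed against untreated). A 1.5-fold rule gave 6 over all cells, 6 in stroma and 3 in neutrophils for regressed against untreated, 7 in stroma for progressed against untreated and 7 in monocytes and macrophages for progressed against regressed. With 9 cell classes in place of clusters, a choice made after seeing the data, the exchanged make-up of Il1b over 8 shared classes gave 928.9 CPM (regressed levels) and 581.2 CPM (untreated levels), between 1159 and 429.5 CPM.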

Other observations

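Across 53 groups of cells (a cluster in a tumor), the genes whose log2(CPM + 1) was most like that of a member by Pearson's r were, as a description, Wfdc17 (0.90) and Clec4d (0.88) for Il1b, Osmr (0.82), the oncostatin M receptor, for Il1r1, and Mxd1 (0.69) for Il1r2. Tnf was most like Neurl3 (0.90), Tnfrsf1a like Ltbr (0.82), the lymphotoxin beta receptor, and Tnfrsf1b like Fxyd5 (0.84). Nfkbia was most like the immediate early genes Dusp1 (0.77) and Junb (0.74) and like Zfp36 (0.73), which is in the NF-kB list, and Tnfaip3 was most like Nfkb1 (0.80), which encodes an NF-kB subunit. The groups share libraries and depths.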
